A study of Mus musculus with 20 samples.

Results

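Introns of at most 100 nt were examined in nascent RNA of MEL cells, a mouse erythroleukemia line that starts to mature towards red cells in dimethyl sulfoxide (DMSO). An intron was included when it was no longer than 100 nt and had at least 10 reads, spliced plus unspliced, in at least 1 of 2 pools of libraries. This gave 868 introns in 512 genes, of 11912 introns of any length with that depth. Introns over 100 and up to 500 nt, 2912 in 1283 genes, were the comparison. Length and depth alone chose the introns, so their splicing, base composition and splice sites were not used in the choice.

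The deposited tables name 2 conditions, uninduced and induced, without listing their libraries. They were taken here to be wild-type MEL cells with no treatment and wild-type MEL cells kept in 2% DMSO for 5 days. Each of these had 4 long-read PacBio libraries, from 2 biological replicates run on RSII and Sequel instruments, and all 8 were made from chromatin-bound RNA depleted of ribosomal and polyadenylated RNA. The other 12 of the 20 samples, from cells with an integrated human HBB gene, wild type or IVS-110, and from PRO-seq, were not analysed here. The deposited values are 1 number per intron and condition, so the spread between replicates is not known and each test compares 2 pools of reads, not 2 conditions.

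An intron is removed by the spliceosome, which recognises the 5' splice site (GT, less often GC), a branch point and a pyrimidine tract with a final AG, cuts at the 5' site first and then joins the exons. In a very short intron these signals lie close together, and factors bound at its ends can pair across the intron itself, called intron definition. Below a minimal length the machinery on the 5' site and on the branch point runs out of room. Much splicing happens while RNA polymerase is still transcribing. The measure of it used here is the co-transcriptional splicing efficiency (coSE), the number of spliced reads over spliced plus unspliced reads of an intron, from 0 to 1. The second measure, NIC, is the share of splicing intermediates, RNA in which the first cut has been made and the exons are still unjoined, among intermediates plus spliced reads.

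The sequences that follow show the range of short introns the results turn on, with the first 2 and last 2 intron bases in capitals. They were read 5' to 3' from GENCODE M21 transcripts (GRCm38) that keep the intron inside an exon, which 243 of the 868 introns have, so they are not a sample of all short introns. The intron of Oaz1 and that of Wdr24 had almost no spliced reads. The introns of Tma7 and Rpl10a were spliced in every read. The 4 introns of Eef1a1 and the introns of Rps28 and Txnip changed between the pools, and that of Nop56 had many intermediates. The intron of Acadvl, of 67 nt, is among the shortest.
Oaz1 intron 2, chr10:80828797-80828892, plus strand, 96 nt: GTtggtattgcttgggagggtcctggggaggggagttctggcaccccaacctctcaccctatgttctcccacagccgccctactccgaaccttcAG
Wdr24 intron 5, chr17:25827357-25827427, plus strand, 71 nt: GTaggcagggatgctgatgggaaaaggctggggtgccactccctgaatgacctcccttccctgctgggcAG
Tma7 intron 2, chr9:109082090-109082170, minus strand, 81 nt: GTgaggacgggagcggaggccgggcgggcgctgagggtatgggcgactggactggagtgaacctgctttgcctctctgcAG
Rpl10a intron 2, chr17:28328886-28328966, plus strand, 81 nt: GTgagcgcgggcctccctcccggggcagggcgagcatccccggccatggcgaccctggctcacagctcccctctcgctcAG
Eef1a1 intron 3, chr9:78480149-78480240, minus strand, 92 nt: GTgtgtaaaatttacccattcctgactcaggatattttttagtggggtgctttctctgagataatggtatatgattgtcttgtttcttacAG
Eef1a1 intron 4, chr9:78479775-78479851, minus strand, 77 nt: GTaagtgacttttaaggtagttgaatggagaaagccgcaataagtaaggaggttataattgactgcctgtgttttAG
Eef1a1 intron 5, chr9:78479535-78479623, minus strand, 89 nt: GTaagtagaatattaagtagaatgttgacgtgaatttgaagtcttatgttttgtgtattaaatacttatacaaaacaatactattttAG
Eef1a1 intron 6, chr9:78479193-78479277, minus strand, 85 nt: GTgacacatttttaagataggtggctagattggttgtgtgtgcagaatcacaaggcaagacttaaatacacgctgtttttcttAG
Rps28 intron 1, chr17:33824347-33824433, minus strand, 87 nt: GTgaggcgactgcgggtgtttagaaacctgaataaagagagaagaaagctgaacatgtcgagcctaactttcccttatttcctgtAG
Txnip intron 5, chr3:96559846-96559937, plus strand, 92 nt: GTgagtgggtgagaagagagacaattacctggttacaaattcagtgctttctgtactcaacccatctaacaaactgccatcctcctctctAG
Nop56 intron 6, chr2:130276624-130276706, plus strand, 83 nt: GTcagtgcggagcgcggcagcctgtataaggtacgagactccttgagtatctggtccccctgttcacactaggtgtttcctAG
Acadvl intron 1, chr11:70015196-70015262, minus strand, 67 nt: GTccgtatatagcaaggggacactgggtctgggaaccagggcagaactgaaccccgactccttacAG
The GC content of these introns spans 23.6% in Eef1a1 intron 5 to 75.3% in Rpl10a intron 2.

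Where no transcript keeps the intron, the authors' deposited table still gives the bases at its ends, 3 exon and 6 intron bases at the 5' site and 20 intron and 3 exon bases at the 3' site. Those of 4 further introns are shown for the results given later: the shortest of all, the only changed intron that starts with GC, and changed introns of Eef2 and Arfgap2. The capitals again mark the ends of the intron.
Hnrnph1 intron 8, 5' site: gagGTaagg
Hnrnph1 intron 8, 3' site: ttacacatttgtccatctAGacc
Eef1a1 intron 2, 5' site: gagGCaagt
Eef1a1 intron 2, 3' site: aattagaagtcactttgcAGatg
Eef2 intron 11, 5' site: gagGTaagt
Eef2 intron 11, 3' site: taacttccagctcttcacAGggc
Arfgap2 intron 4, 5' site: gatGTgagt
Arfgap2 intron 4, 3' site: cagtgtctcctctcttccAGctt

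Reads were counted at each intron, so a read across several introns counts at each of them. Added over introns of any length, these counts came to 416379 before and 279371 after induction. Gene totals in this paragraph are added in the same way. Of the short introns, 700 had at least 10 reads in the uninduced pool, 533 in the induced pool and 365 in both. Their median depth was 16 reads in either pool, where a count of 0 still allows a share of up to 18.8% (3 counts). Intervals of single introns below are 95% Wilson intervals, and like this limit they cover counting error only, since reads of amplified cDNA need not be separate molecules. The red cell markers moved with the labels: introns of Slc4a1, the band 3 anion exchanger, had 0 uninduced and 817 induced reads, and those of Alas2, which starts heme synthesis in the erythroid lineage, 61 and 1536. Klf1, an erythroid transcription factor, had 9 and 11.

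The short introns ran from 56 to 100 nt with a median of 87 nt. In GENCODE M21, 827 of the 868 lie between coding exons, 15 in a 5' UTR, 5 in a 3' UTR and 21 in transcripts or places without coding sequence. The first intron of the transcript made up 5.76% of them, against 9.27% of the longer introns. An annotated transcript kept 28.0% of the short introns inside an exon, against 18.9% of the longer ones. Every annotated transcript across the place spliced out 59.4% of the short introns and 64.0% of the longer introns. Of the host genes, 323 held 1 short intron and the others more. Dync1h1, the dynein heavy chain, held 12, and Trim28, a transcriptional corepressor, and Acadvl, a mitochondrial dehydrogenase of very long fatty acids, held 10 each.

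Short introns were, on average, spliced slightly less than longer ones in chromatin-bound RNA. Their mean coSE was 0.743 before (SD over introns 0.249, n = 700) and 0.735 after induction (SD 0.256, n = 533). The longer introns had a mean of 0.767 (SD 0.250, n = 2410) and 0.797 (SD 0.228, n = 1654). The differences, short minus longer, were -0.0242 and -0.0624. The uninduced one was smaller over gene means, -0.0115, and with the reads of all introns added, -0.00764, where the induced ones were -0.0674 and -0.0651. Medians were 0.818 and 0.810 for short introns, against 0.846 and 0.866. The classes overlapped widely: 20.7% of short introns in the uninduced pool had no unspliced read, and 16.0% had a coSE under 0.5. Introns are not replicates of a condition and introns of a gene share reads, so these differences carry no test.

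Within the short class, coSE was lowest in the shortest introns. The 18 introns of 56 to 70 nt had a mean of 0.422 (SE over introns 0.0627) in the uninduced pool. Introns of 71 to 80 nt had 0.687 (n = 136), those of 81 to 90 nt 0.752 (n = 307) and those of 91 to 100 nt 0.787 (n = 239). In the induced pool the corresponding means were 0.488 (n = 13), 0.661, 0.740 and 0.788. From there to 500 nt the means of length bins stayed between 0.748 and 0.817: introns of 101 to 110 nt had 0.767 and 0.805, and those of 401 to 500 nt 0.774 and 0.817. The class limit cut through introns of like values. Just inside it, at 96 to 100 nt, the means were 0.757 and 0.786, and just outside, at 101 to 105 nt, 0.779 and 0.777.

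**Figure D1:**
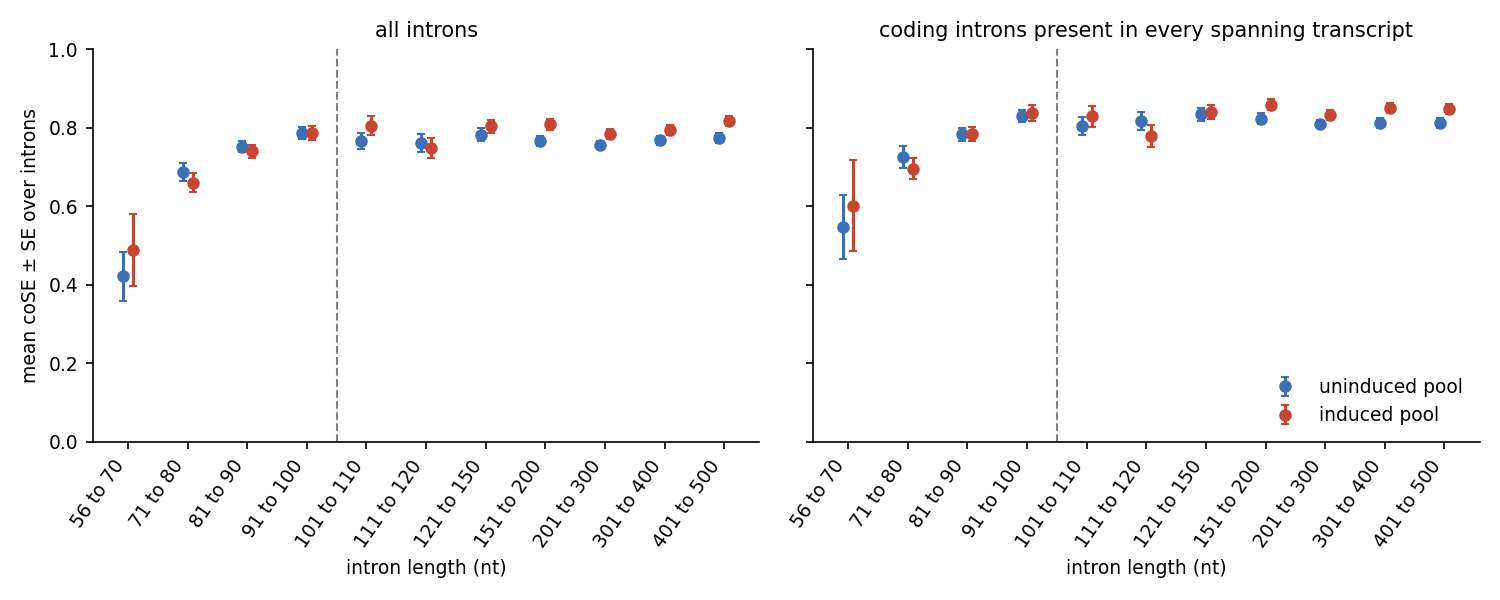
Mean coSE (vertical axis, 0 to 1) with its SE over introns by intron length in nt (horizontal axis) for the uninduced (blue) and induced (red) pool. The left panel holds all introns with at least 10 reads and the right panel those between coding exons that every spanning transcript splices out. The dashed line marks 100 nt, and the means rise from 0.422 and 0.488 at 56 to 70 nt to 0.787 and 0.788 at 91 to 100 nt.

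Part of the spread in coSE went with the annotation. Short introns kept inside an annotated exon had a mean coSE of 0.648 uninduced (n = 207) and 0.634 induced (n = 150), against 0.783 and 0.774 for the others. The same split among longer introns gave 0.641 and 0.678 against 0.800 and 0.824. The short introns in a 5' UTR had a mean of 0.382 before (n = 15) and 0.611 after induction (n = 6), over different sets of introns, and with their reads added the share was 0.524 and 0.521. Among introns between coding exons that every spanning transcript splices out, the steps by length were still present, at 0.548 (n = 8), 0.725, 0.784 and 0.830 before induction. After it they were 0.601 (n = 8), 0.696, 0.785 and 0.838.

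Set against longer introns of the same gene, the difference was smaller and its sign depended on the pool. In the uninduced pool, 335 genes had an intron of each class, and the mean difference per gene was 0.0129 (SD over genes 0.199). The short introns were lower in 144 genes, higher in 171 and equal in 20. In the induced pool the mean over 247 genes was -0.0291 (SD 0.186), with 125 lower and 102 higher. With a limit of 80 nt in place of 100 nt, both means were below 0, at -0.0424 and -0.144, and with at least 20 reads the uninduced mean was -0.0121.

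The shortest intron of all was intron 8 of Hnrnph1, at chr11:50382872-50382927, 56 nt, in the gene of an RNA-binding protein that itself regulates splicing. Spliced reads were 3 of 11 before and 5 of 19 after induction. The coSE was thus 0.273 (interval 0.0975 to 0.566) and 0.263 (interval 0.118 to 0.488). Its 5' site has a high deposited score, 10.3, and every annotated transcript splices it out. Intron 8 of Mau2, a cohesin loader, with 66 nt, had 5 of 15 and 12 of 14 reads spliced. Its difference of 0.524 was among the 5 largest rises of the short introns tested and did not pass the test (adjusted p = 0.243, Fisher's exact test).

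Other introns of up to 70 nt varied widely. Intron 6 of Ptbp1, the gene of the polypyrimidine tract binding protein, has 68 nt and was spliced in 17 of 19 and 15 of 19 reads. Intron 4 of Mcm7, a subunit of the replicative helicase, has 70 nt and was spliced in 25 of 39 and 21 of 25 reads. At the low end, intron 7 of Ppan, a ribosome biogenesis factor, had 2 of 16 and 6 of 18 reads spliced. Intron 5 of Dpp7, a dipeptidyl peptidase, had 2 of 10 and 2 of 16. These 4 introns were chosen after their values were seen. Intron 1 of Acadvl had 7 of 13 and 25 of 37, intron 4 of Pdia2, a disulfide isomerase, 5 of 15 and 1 of 3, and intron 4 of Stk11, a kinase gene, 4 of 11 and 3 of 3.

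Some short introns had no spliced read at all. Intron 2 of Uba7, the activating enzyme of a ubiquitin-like protein, was unspliced in 23 of 23 uninduced and 108 of 108 induced reads, which allows a coSE of up to 0.0343 in the induced pool. That intron, of 69 nt, is spliced out in 1 of 9 annotated transcripts, and its deposited 3' site score is -1.14. Intron 2 of Oaz1, a regulator of polyamine synthesis, was unspliced in 46 and 15 reads and belongs to 1 of 7 transcripts. The intron before it, of 77 nt, was spliced in 52 of 52 and 25 of 25 reads. Intron 1 of Ndufa4 and intron 1 of Trmt112, both in a 5' UTR and in 1 of 2 transcripts, were unspliced in all 30 reads each. Intron 2 of Spcs1, a signal peptidase subunit, was unspliced in 16 and 7 reads and belongs to 1 of 7 transcripts. For the introns of Uba7, Oaz1 and Spcs1, 1, 1 and 2 annotated transcripts keep the intron inside an exon. The remaining transcripts across them neither keep these introns nor splice them out at the same sites. A coSE of 0 there concerns 1 pair of splice sites, and splicing at other sites was not examined.

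At the other end stood short introns without an unspliced read at high depth. Intron 3 of Rpl36, a large-subunit ribosomal protein, was spliced in 101 of 101 and 21 of 21 reads. Intron 2 of Tma7, a small protein associated with the translation machinery, was spliced in 79 and 35 of as many reads. Intron 2 of Rpl10a had 89 and 17, and intron 2 of Zranb2, an RNA-binding splicing factor, 53 and 45. The lower bounds of their intervals in the uninduced pool lay between 0.932 and 0.963. Of the 365 introns measured in both pools, 36 had no unspliced read in either and 26 had a coSE under 0.5 in both.

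Over the 365 short introns with enough reads in both pools, each counted the same, mean coSE was 0.758 uninduced and 0.754 induced, and the mean difference was -0.00359 (SD over introns 0.181). With their reads added up, so that deeply read introns weigh more, the spliced share was 0.851 uninduced and 0.737 induced, and 0.831 and 0.733 without Eef1a1. The added reads gave 0.861 and 0.798 for longer introns and 0.897 and 0.868 for all introns tested. Lower values in the induced pool were seen for 175 short introns, higher for 148 and equal for 42. Among longer introns 468 were lower and 550 higher, and among all tested 1534 and 1879. Spearman's rank correlation between the pools was 0.650 across these introns, which share libraries and, within a gene, reads. Of the 365 introns, 15 passed the test of a change (two-sided Fisher's exact test, Benjamini-Hochberg adjusted p under 0.05), or 4.11%. The background over all 4403 introns tested was 1.61%, and 1.25% for a fall and 0.363% for a rise. The longer introns stood at 3.47% (40 of 1152) and introns over 500 nt at 0.554% (16 of 2886). Of the 15 short introns, 13 fell and 2 rose, and 6 belong to Eef1a1. Without that gene 9 of 359 passed, or 2.51%.

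**Figure D2:**
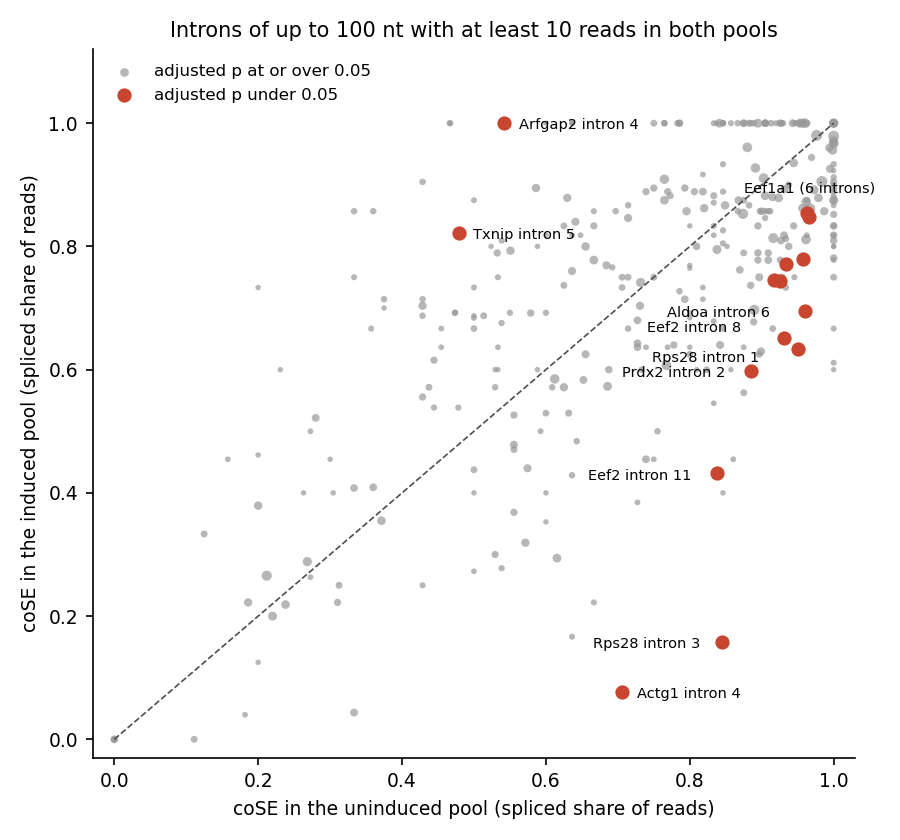
The coSE of 365 short introns in the uninduced pool (horizontal axis) and the induced pool (vertical axis). Each point is 1 intron, larger for more reads when grey. Red points are the 15 with an adjusted p under 0.05, and 13 of these lie under the dashed line of equal values.

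Eef1a1, which encodes the factor that brings aminoacyl-tRNA to the ribosome, has 7 introns, and introns 2 to 7 are all of at most 100 nt. In the uninduced pool they were spliced in 718 of 746, 568 of 588, 446 of 466, 436 of 467, 406 of 439 and 330 of 360 reads. In the induced pool the counts were 82 of 96, 83 of 98, 71 of 91, 64 of 83, 64 of 86 and 41 of 55. All 6 were thus highly spliced in uninduced cells, at 0.917 to 0.966, and lower in induced cells, at 0.744 to 0.854. They fell by 0.108 to 0.181, with adjusted p from 0.000134 (intron 4) to 0.0372 (intron 7). Within either pool the 2 introns nearest the 5' end had the highest values and introns 6 and 7 the lowest, an order for which no spread between replicates is known.

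The only longer intron of Eef1a1, the first, in the 5' UTR and 950 nt, had 0.970 and 0.963 (686 of 707 and 79 of 82 reads, exact test, adjusted p = 1). A test of its change against that of the short introns was not made. The 6 short introns differ in sequence: GC content ran from 23.6% in intron 5 to 43.3% in intron 2, and intron 2 starts with GC and has the lowest 3' score of them, 0.480. They share reads, so they are not 6 separate measurements. Reads over intron 2 went from 746 to 96, and in pooled RNA fewer cells expressing a gene and less RNA per cell cannot be told apart. Processed copies of Eef1a1, of ribosomal protein genes, of Actg1 and of Aldoa lie elsewhere in the genome. How reads with several possible places were treated is not given in the sources used here.

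Eef2, the factor that moves the ribosome along the mRNA, has 6 short introns, and 2 of them passed the test, both with a fall. Intron 8, of 75 nt, went from 109 of 117 to 41 of 63 reads, or 0.932 to 0.651 (exact test, adjusted p = 0.00107). Intron 11, of 70 nt, went from 67 of 80 to 19 of 44, or 0.838 to 0.432 (exact test, adjusted p = 0.00136). Intron 5 had 129 of 145 and 46 of 66 reads spliced and missed the threshold (exact test, adjusted p = 0.0714). Introns 6, 7 and 12 had nearly the same coSE in both pools, 0.903 and 0.911, 0.874 and 0.853, and 0.868 and 0.875. Of the longer introns of Eef2, intron 3, of 446 nt, fell as well, from 163 of 171 to 49 of 62 reads (exact test, adjusted p = 0.0300). Longer introns 4 and 9 had 0.880 and 0.908 before and 0.688 and 0.692 after induction and missed the threshold (exact test, adjusted p = 0.0818 and 0.0580).

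Rps28, a small-subunit ribosomal protein gene, had falls at both of its short introns. Intron 1 went from 154 of 162 reads (0.951) to 19 of 30 (0.633, exact test, adjusted p = 0.00181). Intron 3, in the 3' UTR of 1 of 7 annotated transcripts, went from 38 of 45 (0.844) to 3 of 19 (0.158, interval 0.0552 to 0.376, exact test, adjusted p = 0.000140), the largest fall among the 365 short introns tested. Intron 2 between them, of 968 nt, fell as well, from 162 of 169 to 20 of 29 (exact test, adjusted p = 0.00662). Intron 4 of Actg1, cytoplasmic gamma actin, went from 24 of 34 to 1 of 13 reads (exact test, adjusted p = 0.0159), and longer intron 5 beside it, of 103 nt, from 22 of 36 to 1 of 11, which did not pass (adjusted p = 0.168). Intron 6 of Aldoa, a glycolytic enzyme, went from 119 of 124 to 16 of 23 (exact test, adjusted p = 0.0337), and longer intron 5 from 122 of 133 to 18 of 26 (adjusted p = 0.160). With all introns of at least 5 reads in the test, Aldoa intron 6 (adjusted p = 0.0804) and Eef1a1 intron 7 (adjusted p = 0.0895) missed the threshold of the exact test.

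Prdx2 and Txnip differed from these genes in which pool held more reads or in direction. Intron 2 of Prdx2, a peroxide-removing enzyme abundant in red cells, fell from 54 of 61 reads (0.885) to 116 of 194 (0.598, exact test, adjusted p = 0.00323), with more reads in the induced pool. Introns 3 and 4 of the gene, of 697 and 152 nt, fell too, from 46 of 51 to 101 of 186 reads and from 44 of 46 to 80 of 149 (exact test, adjusted p = 0.000468 and 1.24e-05). Its intron 1, of 389 nt in the 5' UTR, went from 5 of 13 to 5 of 92 and missed the threshold (exact test, adjusted p = 0.112). Its intron 5, of 2307 nt, had 37 of 44 and 60 of 70 reads spliced and did not pass. Intron 5 of Txnip, an inhibitor of thioredoxin that also limits glucose uptake, rose from 57 of 119 reads (0.479, interval 0.391 to 0.568) to 46 of 56 (0.821, interval 0.702 to 0.900, exact test, adjusted p = 0.00314). Longer introns 3 and 6 of the gene, of 115 and 113 nt, rose with it, from 65 of 93 to 59 of 63 reads and from 47 of 126 to 37 of 51 (exact test, adjusted p = 0.0209 and 0.00374). Intron 4 of Arfgap2, which acts in vesicle coats at the Golgi, rose from 13 of 24 to 21 of 21 (exact test, adjusted p = 0.0247). Its rise missed the threshold with a chi-square test (adjusted p = 0.0749) and in the exact test with all introns of at least 5 reads (adjusted p = 0.0601).

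**Figure D3:**
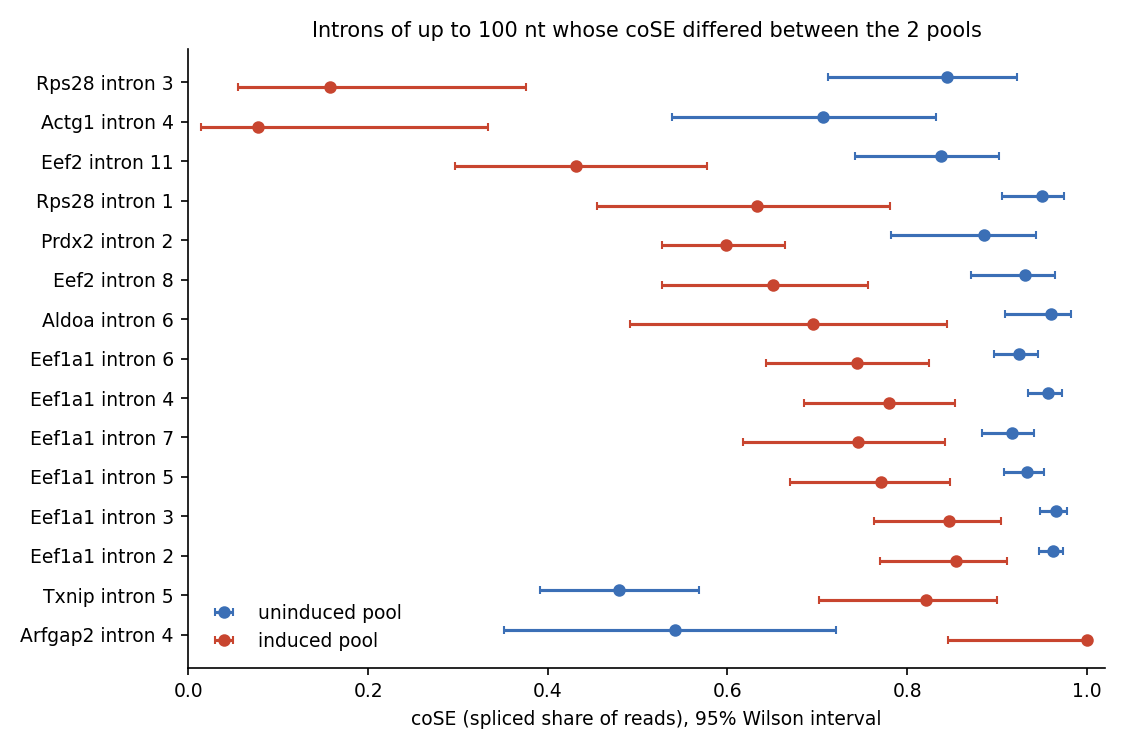
The coSE (horizontal axis, 0 to 1) of the 15 short introns with an adjusted p under 0.05, in the uninduced (blue) and induced (red) pool. Bars are 95% Wilson intervals, which cover counting error only. The lowest induced value is that of Actg1 intron 4, 0.0769, and 13 introns lie lower in the induced pool.

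Of the 5 largest rises by size among the introns tested, none passed the test. Intron 7 of Fasn, fatty acid synthase, went from 7 of 15 to 10 of 10 reads (exact test, adjusted p = 0.241). Intron 8 of Tnpo2, a nuclear import receptor, went from 7 of 15 to 15 of 15 (exact test, adjusted p = 0.108), and intron 12 of Upf1, the helicase of nonsense-mediated decay, from 2 of 10 to 11 of 15 (exact test, adjusted p = 0.365). Ppan intron 4, of 86 nt, went from 9 of 25 to 12 of 14 (exact test, adjusted p = 0.214). Among the 5 largest falls, Eif4g2 intron 20, Impdh2 intron 11 and U2surp intron 8 did not pass either, with 12 to 22 uninduced and 10 to 18 induced reads. With so few reads, a difference of 0.5 between pools was not always detectable.

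The host genes differed in how well their short introns were spliced. The 34 short introns of 29 ribosomal protein genes had mean coSE 0.907 uninduced and 0.873 induced (n = 26), the highest uninduced mean of the 8 groups of host genes with uninduced values. Of the 26 tested, 2 passed the test with a fall, both in Rps28, and none with a rise. By direction alone, 18 were lower in the induced pool, 6 higher and 2 equal. The median difference was -0.0569, against 0 over all introns tested. Of 28 tested introns in translation factor genes, 8 passed with a fall, all in Eef1a1 and Eef2, and none with a rise. Of all 28, 20 were lower and 8 higher in the induced pool, with a median difference of -0.137. The 51 short introns of 30 RNA processing genes, mostly helicases, hnRNP and splicing factors, had means of 0.667 and 0.674, and 0 of 22 tested passed. Those of tRNA synthetase genes had 0.582 (n = 10) and 0.673 (n = 8), those of proteasome genes 0.861 (n = 11) and 0.797 (n = 7), and none of 5 and 7 tested passed. The 5 short introns of mitochondrial ribosome genes had 0.716 in the uninduced pool, and 0 of 1 tested passed. The chaperone genes had 0.734 (n = 18) and 0.604 (n = 14), with 0 of 13 called, and the actin and tubulin genes 0.748 (n = 5) and 0.576 (n = 4), with 1 of 4 called, Actg1 intron 4. With 1.61% called over all introns, counts of 0 among so few say nothing about these groups. The groups were formed from gene symbols. Against the longer introns of the same genes the direction varied, and no such difference was tested. Longer introns had higher means in both pools for tRNA synthetase genes (0.750 and 0.838), chaperone genes (0.781 and 0.759) and RNA processing genes (0.704 and 0.781). In the uninduced pool they had lower means for ribosomal protein genes (0.884), translation factor genes (0.779 against 0.806 for short introns), mitochondrial ribosome genes (0.636) and actin and tubulin genes (0.741). After induction the longer introns of ribosomal protein genes had 0.877, of translation factor genes 0.759 against 0.708, and of actin and tubulin genes 0.656. Those of proteasome genes had 0.868 before, above the short introns, and 0.764 after, below them.

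In genes with many short introns the values of neighbours can be set side by side. Acadvl, with 10, had more induced than uninduced reads, and its coSE in the induced pool ran from 0.676 in intron 1 to 1 in introns 5 and 18, with a mean of 0.846. Dync1h1, with 12, had a mean of 0.849 in the induced pool, from 8 of 14 reads in intron 60, of 78 nt, to 13 of 13 in introns 49 and 62. With so few reads the intervals of these extremes overlap (0.326 to 0.786 and 0.772 to 1). Trim28 showed a different picture in the uninduced pool: introns 10 and 11 had 9 of 21 and 7 of 23 reads spliced, while the other 8 ran from 0.667 to 0.846. Those 2 introns are kept inside an exon by 4 and 3 of the 5 transcripts across them.

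In Eif4g2, an initiation factor for a subset of mRNAs, 8 short introns with GC contents from 19.5% in intron 6 to 40.2% in intron 20 had a mean coSE of 0.554 and 0.594. Introns 6, 7 and 10 had higher values in the induced pool, 0.750, 1 and 0.905 against 0.333, 0.636 and 0.429. Introns 16, 17, 19 and 20, nearer the 3' end, had lower ones, 0.679, 0.484, 0.300 and 0.222 against 0.833, 0.643, 0.529 and 0.667. None of the 8 passed the test, with adjusted p from 0.197 upward. Its longer introns 13 and 14, of 302 and 567 nt, had 0.182 each before and 0.121 and 0.176 after induction, below every short intron of the gene. Some other longer introns differed in the same directions as the short introns near them: introns 8, 9 and 11 had 0.273, 0.267 and 0.421 before and 0.850, 0.727 and 0.818 after induction, and introns 18 and 21 had 0.625 and 0.667 before and 0.346 and 0.308 after. Intron 15, next to short intron 16, had 0.375 before and 0.385 after. None of these passed the exact test either, with adjusted p from 0.168 upward.

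Edc4, a scaffold of mRNA decapping, had 9 short introns, and the 8 with enough uninduced reads ran from 1 in intron 6 (23 of 23 reads) to 0.429 in intron 13 (9 of 21) in the uninduced pool. In the induced pool 7 of the 8 tested were lower, and none passed the test. Its longer introns 2, 3, 4 and 7 were higher there, 0.623, 0.280, 0.917 and 0.867 against 0.439, 0.182, 0.867 and 0.708. Longer introns 5 and 11 were lower, 0.487 and 0.722 against 0.633 and 0.929, and none of these passed either. Xrn2, the nuclear exonuclease that acts in transcription termination, had 7 short introns at 0.731 to 0.926 in the uninduced pool, with a GC content as low as 21.4% (intron 12). In Tnpo2 all 5 tested introns had higher values in the induced pool, with means of 0.611 over 5 introns and 0.877 over 7, and none passed the test. Of Impdh2, an enzyme of guanine nucleotide synthesis, 7 short introns had a mean of 0.714 in the uninduced pool.

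**Figure D4:**
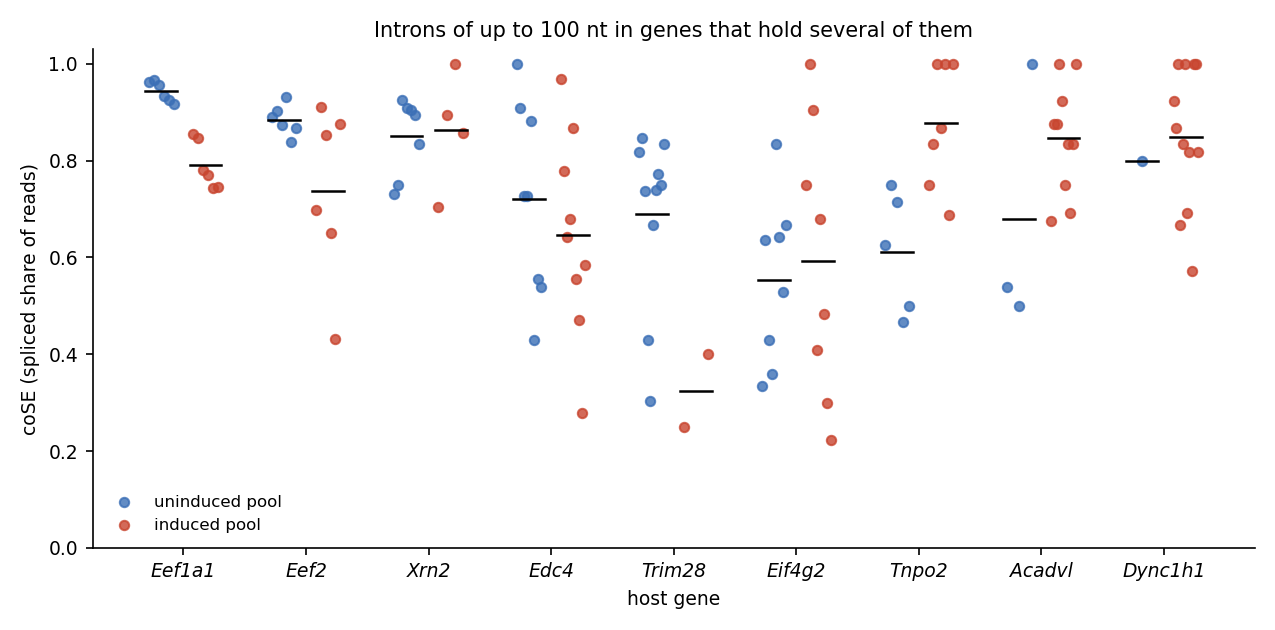
The coSE (vertical axis, 0 to 1) of each short intron with at least 10 reads in 9 genes that hold 6 or more (horizontal axis), in transcript order from left to right within each pool (uninduced blue, induced red). Black lines are means over introns. Qars, Slc44a2 and Impdh2, with 8, 7 and 7 short introns, are not drawn. The 6 introns of Eef1a1 lie at 0.917 to 0.966 in the uninduced and at 0.744 to 0.854 in the induced pool.

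Base composition set short introns apart more by its spread than by its mean. The authors' second table lists 502 of the 868 short introns and 1705 of the longer ones. Median GC content was 50.5% for the short and 47.6% for the longer introns. A GC content of up to 35% was found in 16.1% of short introns and 11.6% of longer ones, and one over 55% in 32.7% and 19.4%. The SD over introns was 12.03 percentage points against 9.79 among those listed in the uninduced pool. These spreads were not adjusted for the number of bases behind each percentage, with median lengths of 87 and 248 nt over the whole classes. GC content was almost unrelated to coSE: Spearman's rank correlation across short introns was 0.0334 (n = 412) and 0.0405 (n = 283), over introns that share libraries.

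The splice sites were of much the same strength as in longer introns. The deposited 5' score had a mean of 8.32 (SD 2.13) in short and 8.19 (SD 2.36) in longer introns listed in the uninduced pool. The 3' score had 8.37 (SD 2.62) and 8.38 (SD 2.57). The rank correlation between score and coSE across short introns was 0.108 for the 5' and 0.0674 for the 3' score in that pool. Pyrimidines made up 68.0% of the last 20 intron bases in short and 67.8% in longer introns. The short introns began with GT in 497 of 502 and with GC in 5: Eef1a1 intron 2, Acadvl intron 8, Nckap1l intron 6, Prc1 intron 4 and Rint1 intron 5. The start of introns cut by the minor spliceosome, GTATCC or ATATCC on the intron strand, was found in 0 of 502 short and 10 of 1705 longer introns.

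Runs of G, which splicing regulators such as the protein made from Hnrnph1 bind, were looked for in the introns with a sequence. At least 1 run of 3 or more G (GGG, on the intron strand only) was found in 69.1% of 243 short introns and 93.5% of 551 longer ones. Per 100 nt the numbers were nearly equal, 1.89 and 1.85. Oaz1 intron 2 and Wdr24 intron 5, with almost no read spliced at their annotated sites, hold 4 runs each. Tma7 intron 2 and Rpl10a intron 2, spliced in every read, hold 5 and 3.

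Retaining a short intron can leave the reading frame open. A length that is a multiple of 3 was found in 31.8% of short and 33.7% of longer introns. Of 227 short coding introns with a sequence and a known frame, 10 had such a length and no in-frame stop among the codons that lie wholly inside the intron: in Dpp7, Fxr1, Gapdh, Mapk8ip3, Mrpl4, Oaz1, Rmc1, Rps2, Syvn1 and Xab2. Their mean coSE was 0.528 (n = 8) and 0.373 (n = 6), against 0.679 (n = 61) and 0.689 (n = 39) for those with a length in 3s and a stop. The 10 did not behave alike. Rps2 intron 2 was spliced in 17 of 17 uninduced reads, and intron 5 of Gapdh, a glycolytic enzyme, in 2 of 17. Oaz1 intron 2, which 1 of 7 annotated transcripts splices out, enters the means of both pools at 0. Among longer introns the same groups had 0.532 (n = 12) and 0.667 (n = 124) in the uninduced pool. All these introns are kept by some annotated transcript.

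The mean share of splicing intermediates was higher in short than in longer introns in both pools. For short introns, mean NIC was 0.0564 uninduced (n = 412) and 0.0770 induced (n = 283), against 0.0479 (n = 1454) and 0.0503 (n = 867). With the reads of all introns added, NIC was 2.59% uninduced and 8.15% induced for short introns, against 2.41% and 4.22%, and a single intron gave 36.3% of the 471 induced intermediates of the short class. Without the intron with most intermediates in each, the induced values were 5.45% and 3.93% and the uninduced ones 2.46% and 2.38%. These differences between the classes were not tested. An intermediate was listed for 41.5% and 45.6% of the short introns, against 38.0% and 41.5% of the longer ones. The median NIC was 0 in either class and pool. Of the 193 short introns listed in both pools, 0 passed the test of a change in NIC (Fisher's exact test, Benjamini-Hochberg adjusted), with 3 at an unadjusted p under 0.05 and 0 by a chi-square test. The background was 0.0981%, or 2 of 2039.

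Among the short introns reported here, a few had many intermediates for their depth. Intron 6 of Nop56, a protein of box C/D snoRNPs, had 21 beside 29 spliced reads in the uninduced pool, a NIC of 0.420 (interval 0.294 to 0.558), and 4 beside 17 in the induced pool. Its coSE was low in both, 32 of 151 and 17 of 64 reads. Intron 12 of Eef2 had 2 beside 51 and 8 beside 13, the smallest unadjusted p of the short introns (exact test, p = 0.000412, adjusted p = 0.280). Intron 7 of Hspa8, a constitutive chaperone, had 1 beside 12 and 7 beside 10. The highest values, 1, rest on few reads without any spliced one: 11 intermediates for Uba7 intron 2 and 3 for Wdr24 intron 5, both in the induced pool, and 3 for Oaz1 intron 2 in the uninduced pool. Nop56 and Hspa8 were chosen after their values were seen.

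Of the Hba, Hbb, Alas, Slc4a1, Gata1 and Klf1 genes, Slc4a1 alone held short introns, 2 in number, with no uninduced reads. In the induced pool intron 5, of 79 nt, was spliced in 32 of 58 reads and intron 18, of 81 nt, in 12 of 16. Their intermediates numbered 5 beside 30 and 3 beside 8 spliced reads. The theta-globin genes Hbq1a and Hbq1b lie outside that list, and intron 1 of each, of 95 nt, was spliced in 8 of 34 and in 58 of 116 induced reads, with 0 and 6 uninduced reads.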

How the data were processed

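Nascent RNA of MEL cells was measured in 4 uninduced and 4 induced long-read libraries, which the authors' tables give as 1 line per intron and condition; which runs were pooled is not given in the sources used here. Per the file headers, the first deposited table holds counts of spliced and of unspliced reads. The second deposited table holds counts of spliced reads and intermediates, NIC as a fraction, GC content as a percent and a score for each splice site. The submitters' processing notes list mm10, dm3, cutadapt, minimap2, SAMtools, bedtools and Bowtie without roles; the counting rules and the scoring program are not given in the sources used here. How unspliced reads were merged, and whether reads were collapsed by molecule, bears on every coSE and is not given either.

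From these, coSE was computed for introns with at least 10 reads. Intron positions, 1-based, were matched to GENCODE M21 (GRCm38) for 68768 of 68794 introns. Two-sided Fisher's exact tests (scipy 1.17.1) ran over all 4403 introns with at least 10 reads in both pools, adjusted by Benjamini and Hochberg's method (threshold 0.05). The test script was checked on simulated data. At the median depth of 16 reads, a coSE has a wide interval, and no spread between replicates is known. No test was applied to differences between length classes.

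The introns and lists were chosen with earlier results of these data known. Introns are named if they pass the threshold, are among the 5 largest rises or falls, the 5 lowest, highest, deepest or shortest, have the 3 highest NIC, or lie in the 3 genes with most short introns; others were chosen after their values were seen. Alternatives were the read minimum, the length limit, the host genes, the transcripts, the weighting and the test. Restricting to coding introns or to introns measured in both pools, and leaving out Eef1a1, was chosen after seeing the data. Some introns that the naming rule picks are not reported here.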

Additional observations from a re-analysis of the deposited data

How the results depend on the processing

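Of the values recomputed under other settings, 66 were classed as the same, 20 moved and 10 reversed. The adjusted p of single introns are not among these values. A mean or difference classed as the same kept its direction and stayed within the spread taken as the bound. Numbers of changed introns were judged by their size. That bound is wide for the uninduced short minus longer differences: GC content went from 0.965 to 0.339 at 20 reads and 0.223 over gene means, 5' score from 0.133 to 0.0289 and NIC from 0.00848 to 0.00342 at 20 reads, and coSE from -0.0242 to -0.0115 over gene means. With a limit of 80 nt, mean coSE of short introns was 0.656 and 0.642 (uninduced and induced) and the difference to longer introns -0.111 and -0.155, and within genes it was -0.0424 and -0.144. With 90 nt the means were 0.720 and 0.706, the differences -0.0471 and -0.0913, and those within genes -0.00629 and -0.0662. At 80 nt the short minus longer difference in GC content was -0.110 and -0.105 percentage points against 0.965 and 1.38, in 5' score 0.384 and 0.517, in 3' score 0.371 and -0.129, and in NIC 0.0383 and 0.0707. At 20 reads the uninduced mean coSE was 0.773, the uninduced difference within genes -0.0121, and the difference in 3' score 0.160 and -0.0120 against -0.0170 and 0.169. Mean coSE was 0.785 and 0.781 for introns in all spanning transcripts, and the share of all reads added was 0.823 and 0.721, with an uninduced difference of -0.00764. With introns measured in both pools, the uninduced difference within genes was -0.00373, so its sign is not settled by these data; the cause was not tested. The number of short introns whose coSE changed was 15, and 9 of 232 with a limit of 90 nt or 9 of 359 without Eef1a1, where fewer introns were tested. With at least 5 reads in both pools, Eef1a1 intron 7 (adjusted p = 0.0895), Aldoa intron 6 (0.0804) and Arfgap2 intron 4 (0.0601) missed the threshold by Fisher's exact test, and with the uninduced reads thinned Eef1a1 intron 7 did (0.0775). Actg1 intron 4 and Rps28 intron 3 have under 20 induced reads and were not tested at that depth. No paired analysis was possible because the deposited tables pool the replicates of a condition, and for the same reason no replicate could be left out. Depth limits single introns: at 16 reads a coSE of 0 cannot be told from 18.8%.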
